A study of Mus musculus with 8 samples.

Results

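The DNA damage response and the cell cycle were followed through 9 genes in mouse leukemia cells with and without Gata2. The genes are Trp53inp1, Rrm2b, Ccne2, Melk, Casp8ap2, Nbn, Rad54b, Fancg and Pot1a. They were chosen by function from stretches of chromosomes 4, 6 and 15 in which the row names of the count table could be read as genes, and make up 9 of 977 rows there and of 49585 rows in all. The cells carried the MA9 label, a usual short form of the MLL-AF9 fusion oncogene, and came from bone marrow. Their culture medium, IMDM, held SCF at 20 ng/mL, IL-6 at 10 ng/mL, IL-3 and 15% serum. The control group was Gata2 f/f, by convention a pair of alleles with recombination sites around part of the gene, and the other group, Gata2 KO, was Gata2 -/-. Poly(A) RNA was sequenced in 4 libraries of each genotype. The labels give neither the recombinase or the time of deletion, nor whether replicates were separate animals, clones or cultures, so p-values reflect library to library spread alone, which may be technical.

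Cells answer DNA breaks and stalled replication by stabilising p53, which switches on genes that stop the cycle, supply nucleotides for repair or lead to cell death. Breaks are sensed by the Mre11, Rad50 and Nbn complex and mended by homologous recombination, and crosslinks are handled by the Fanconi anemia proteins. Blood progenitors depend on these pathways because they divide often, and GATA2 is a transcription factor that maintains such progenitors.

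Row names had to be checked before any gene was read. Over the 8 libraries the row named Actb held 10 counts, Mpo held 9 and B2m held 0. The Gata2 row held between 0 and 2 counts in every library, so the deleted gene could not check the genotype labels. Totals ran from 1610369 to 6237748 counts, and the libraries numbered 4 were the deepest of each genotype. In the 3 stretches, given in GRCm38 coordinates (chromosome 4 between 3831334 and 49521093, chromosome 6 between 11900292 and 30304539, and chromosome 15 between 31590800 and 38692446), names and levels fitted each other better. There 49.2% of 390 protein-coding rows reached 20 CPM, the usual scaling of counts by library size, in the pooled libraries, against 16.8% of 21331 protein-coding rows elsewhere. All 22 ubiquitous genes listed for the stretches lay between 25.6 and 10900 CPM. Genes of this list bound the stretches, which were chosen where such genes are counted, so this is no independent check. Of 29 genes restricted to other tissues, such as the neuronal calcium binder Calb1 near Nbn and the receptor Gpr37 near Pot1a, 27 lay under 1 CPM. The exceptions were Cdh17, near 2 CPM, and the ephrin receptor Epha7, at 387 CPM. The rows named Actb, Mpo and B2m were low as well, and the share of all rows under 1 CPM was not counted. Low levels of restricted genes alone therefore do not show that names are right. Trp53inp1, Ccne2, Rad54b and Nbn lie in the first 20 Mb of chromosome 4, where the ubiquitous gene Rps20 is far from the next one in the list. In that window 34 of 62 protein-coding rows (54.8%) reached 20 CPM. Rows named for myeloid progenitor genes lie outside the stretches, and 5 of 8 were under 1 CPM, so the labelled cell type could not be checked by them.

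**Figure D1:**
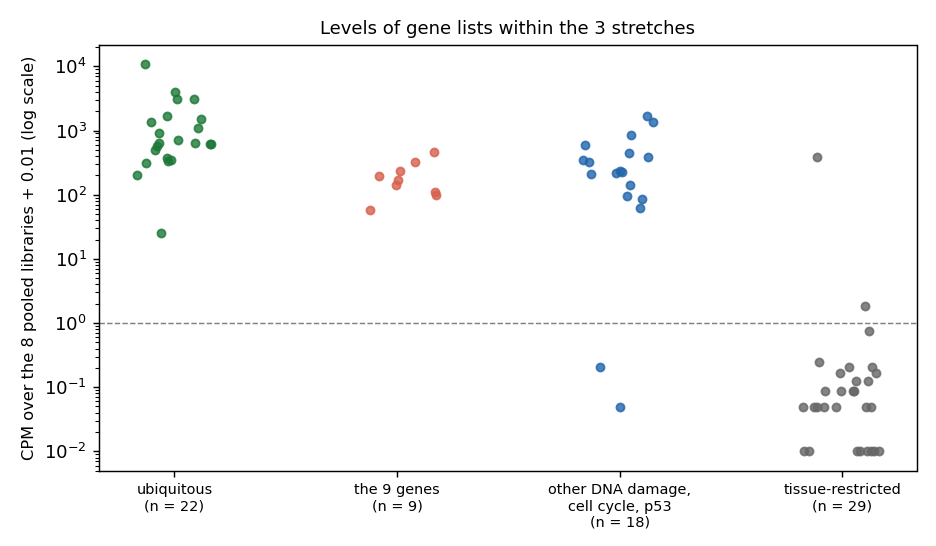
Each point is a gene in the 3 stretches, with its CPM over the 8 pooled libraries plus 0.01 on a log axis, for 22 ubiquitous genes, the 9 genes, 18 other genes of the same pathways and 29 tissue-restricted genes. The dashed line marks 1 CPM, and 27 of the 29 restricted genes lie under it while every ubiquitous gene and each of the 9 genes lies above.

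All 9 genes passed the filter on low counts, the lowest count being 91 for Rad54b. Called below means a Benjamini-Hochberg adjusted p under 0.05 in edgeR's quasi-likelihood test over 6580 rows, and log2 fold changes are Gata2 KO over Gata2 f/f with their SE. With genotype alone in the model 1 of the 9 genes was called, Trp53inp1, which was higher. Over all rows tested 822 were called (12.5%), 590 of them higher (8.97%), and in the 253 rows tested in the stretches 31 were called (12.3%), 24 of them higher (9.49%). With the replicate number as a block, which compares same-numbered libraries, 4 of the 9 were called, Trp53inp1 higher and Nbn, Rad54b and Pot1a lower. That model called 35.5% of all rows and 45.5% of the rows in the stretches, and called 16.7% and 24.1% lower. The share among the 9 genes is thus near the background in both models. The genotypes did not overlap for 2 of the 9, Trp53inp1 and Pot1a, against 19.1% of all rows and 19.8% in the stretches. The median log2 fold change was -0.07 over the 9 genes and -0.01 over all rows tested.

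Of the p53 targets, Trp53inp1 was about 3 times as high without Gata2 while the means of Rrm2b were nearly equal. Trp53inp1 (ENSMUSG00000028211.11, chromosome 4 from 11156431 to 11174379, plus strand) encodes a stress protein induced by p53 that acts in autophagy and cell death. Its level was 76.1, 63, 65.9 and 61.8 CPM in Gata2 f/f libraries 1 to 4. In Gata2 KO libraries 1 to 4 it was 245, 221, 216 and 166 CPM. Every Gata2 KO library lay above every Gata2 f/f library, and the lowest Gata2 KO value was that of library 4. The means were 66.7 ± 6.53 and 212 ± 33.2 CPM (SD, n = 4 each), a ratio of 3.18. The log2 fold change was 1.67 ± 0.14 (95% interval 1.36 to 1.97, adjusted p = 3.63e-05). Within same-numbered libraries the log2 difference was 1.68, 1.81, 1.70 and 1.42. Over the alternatives tried, the adjusted p of Trp53inp1 ran from 5.72e-25 to 0.000452 and its log2 fold change from 1.59 to 1.77. By p-value it ranked 2 among the 253 rows tested in the stretches and 14 among all rows. In bulk RNA, more cells with the transcript and more transcript per cell cannot be told apart.

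The genes beside Trp53inp1 did not share its size of change. Ccne2 starts 17 kb away on the same strand and had a log2 fold change of -0.07 ± 0.26. On the other side Ndufaf6, a factor of mitochondrial complex I assembly, lies 80.2 kb away and had mean levels of 104 CPM (Gata2 f/f) and 80.9 CPM (Gata2 KO, log2 fold change -0.36, adjusted p = 0.208, and 0.0024 with the block).

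Rrm2b (ENSMUSG00000022292.15, chromosome 15 from 37923952 to 37961318, minus strand) encodes the p53-inducible small subunit of ribonucleotide reductase, which supplies nucleotides for repair and for mitochondrial DNA. Gata2 f/f libraries 1 to 4 held 105, 121, 105 and 91.2 CPM. Gata2 KO libraries 1 to 4 held 138, 109, 95.4 and 83.8 CPM. The ranges overlapped, with Gata2 KO holding both the highest and the lowest value. The means were 106 ± 12.2 and 107 ± 23.3 CPM (SD, n = 4 each), and the log2 fold change of 0.01 ± 0.16 had a 95% interval from -0.34 to 0.36 (adjusted p = 0.985). A change as large as that of Trp53inp1 lies outside this interval. The processed pseudogene row Gm3362 lies within the bounds of Rrm2b without sharing exon bases and held 22 and 21.1 CPM, and whether it takes reads of Rrm2b was not tested.

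The response of Trp53inp1 was then compared directly with that of each other gene, through the log2 ratio of the 2 CPM values in every library. Against Rrm2b the ratio went from -0.66 ± 0.20 in Gata2 f/f to 1.00 ± 0.14 in Gata2 KO (SD, n = 4 each), a difference of 1.65. The 8 differences lay between 1.51, against Melk, and 1.97, against Nbn. The exact two-sided permutation p over 70 groupings was 0.0286, the smallest possible, for 7 of the 8 ratios (0.0327 after adjustment over the 8). All 8 ratios share Trp53inp1, whose genotypes did not overlap, so they are not 8 separate results. Since the other genes changed little, these p-values add little to the call of Trp53inp1 itself. For Casp8ap2, whose spread was the widest, it was 0.0571, also after adjustment. Swapping genotypes only within replicate numbers gave an exact p of 0.125 for all 8, the smallest that 16 swaps allow, so that form of the test cannot pass 0.05.

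**Figure D2:**
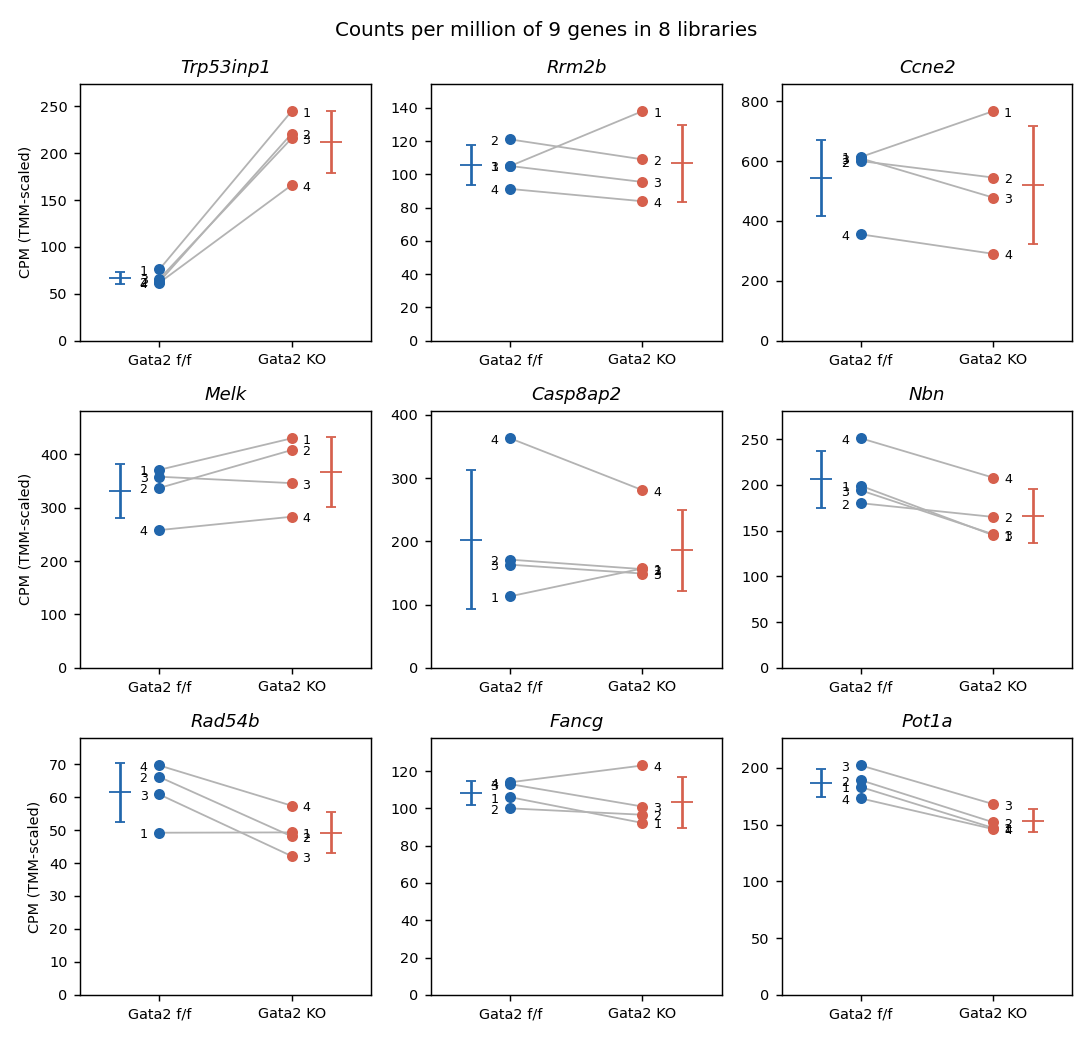
TMM-scaled CPM of each of the 9 genes in the Gata2 f/f (blue) and Gata2 KO (red) libraries, each panel on its own axis from 0, with library numbers beside the points, grey lines joining same-numbered libraries and bars giving mean ± SD (n = 4). Only for Trp53inp1 and Pot1a do the genotypes not overlap, and the libraries numbered 4 are the lowest for Ccne2 and the highest for Casp8ap2.

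The 3 cell cycle genes did not pass in either model, and for Ccne2 and Casp8ap2 the libraries numbered 4 stood well apart from the rest. Ccne2 (ENSMUSG00000028212.16, chromosome 4 from 11191351 to 11204779, plus strand) encodes cyclin E2, which activates Cdk2 at entry into S phase. It held 614, 600, 609 and 355 CPM in Gata2 f/f libraries 1 to 4 and 767, 545, 478 and 290 CPM in Gata2 KO. Both libraries numbered 4 lay lowest in their genotype, and the ranges overlapped. The log2 fold change was -0.07 ± 0.26 (95% interval -0.64 to 0.50, adjusted p = 0.912, and 0.308 with the block). Exons of Ccne2 share 609 bases with Ints8 on the opposite strand, and the kit does not mark strand, so reads there cannot be assigned to one of these genes. Ints8, an Integrator subunit, had mean levels of 403 CPM (Gata2 f/f) and 359 CPM (Gata2 KO).

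Melk (ENSMUSG00000035683.13, chromosome 4 from 44300876 to 44364675, plus strand) encodes a kinase that peaks in mitosis and is high in dividing progenitors. Its level was 371, 337, 358 and 258 CPM in Gata2 f/f libraries 1 to 4 and 430, 408, 346 and 283 CPM in Gata2 KO. In 3 of the 4 pairs the Gata2 KO library was the higher one. Its log2 fold change was 0.15 ± 0.16 (95% interval -0.19 to 0.49, adjusted p = 0.619, and 0.117 with the block).

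Casp8ap2 (ENSMUSG00000028282.12, chromosome 4 from 32615451 to 32653265, plus strand) encodes FLASH, which is needed for processing of histone mRNA in S phase. Gata2 f/f libraries 1 to 4 held 113, 171, 163 and 363 CPM, and Gata2 KO libraries 1 to 4 held 157, 156, 149 and 281 CPM. Both libraries numbered 4 stood above the other 6, and without them the means were 149 ± 31.1 and 154 ± 4.68 CPM (SD, n = 3 each). With all libraries the log2 fold change was -0.13 ± 0.32 (95% interval -0.84 to 0.57, adjusted p = 0.855), an interval too wide to set against small changes. Without Gata2 f/f library 4 it was 0.32 (adjusted p = 0.344, and 0.344 to 0.974 over all alternatives).

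Promoter sequences were found for 4 of the 9 genes, Casp8ap2, Fancg, Melk and Pot1a, in RefSeq for GRCm38.p6. The 250 bases before each start were searched on both strands for the E2F site, through which genes are switched on at entry into S phase, as TTTCCCGC, TTTGGCGC or TTTCGCGC. Casp8ap2 and Fancg held 1 match each and Melk and Pot1a held none, while 1.53% of 32851 promoters held one. The CHR element of mitotic genes, as TTTGAA or TTCGAA, was in none of the 4 and in 17.1% of all promoters. The CCAAT box, as CCAAT, was found in Casp8ap2 only, with 2 matches, and in 33.8% of all promoters. The decamer of the p53 response element was found in Fancg only, 165 to 156 bases before the start, and in 7.13% of all promoters. The stretches with the E2F matches, in capitals, are shown 5′ to 3′ on the strand of the gene because these are the members with a match to a cell cycle motif. For Casp8ap2 it is chr4:32615220-32615419, plus strand, and for Fancg chr4:43010335-43010364, minus strand.
Casp8ap2: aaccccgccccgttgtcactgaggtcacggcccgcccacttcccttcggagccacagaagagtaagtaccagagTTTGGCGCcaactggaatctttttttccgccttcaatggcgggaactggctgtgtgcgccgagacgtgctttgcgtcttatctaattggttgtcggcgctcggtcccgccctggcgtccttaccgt
Fancg: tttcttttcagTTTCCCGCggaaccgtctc
The Casp8ap2 match lies 176 to 169 bases and the Fancg match 52 to 45 bases before the RefSeq start. The bounds of Fancg used in this report reach 43010506, so its E2F match and its p53 decamer lie inside them. These bases are thus not before every annotated start of Fancg. Neither gene was called in either model. A match is a description of these letters and says nothing of binding.

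Of the genes of DNA break repair, Nbn and Rad54b were about 20% lower in Gata2 KO and passed with the block only, while Fancg passed in neither model. Nbn (ENSMUSG00000028224.14, chromosome 4 from 15957925 to 15992589, plus strand) encodes nibrin, which recruits the kinase ATM to breaks. It held 199, 180, 194 and 251 CPM in Gata2 f/f libraries 1 to 4. It held 145, 165, 146 and 208 CPM in Gata2 KO libraries 1 to 4. Each Gata2 KO library lay below its same-numbered Gata2 f/f library, but the ranges overlapped because library 4 of Gata2 KO was above libraries 1 to 3 of Gata2 f/f. The log2 fold change of Nbn was -0.31 ± 0.15 (95% interval -0.64 to 0.01, adjusted p = 0.206). With the block it was -0.32 ± 0.07 (adjusted p = 0.00268). Without the block Nbn also passed when Gata2 KO library 4 was left out (-0.45, adjusted p = 0.0436) and when both libraries numbered 4 were left out (-0.32, adjusted p = 0.0293). Without Gata2 f/f library 4 it moved the other way, to -0.20 (adjusted p = 0.34). Over all alternatives its adjusted p ran from 0.00268 to 0.481. Its neighbours differed from each other. Decr1, an enzyme of fatty acid oxidation 12.4 kb away, had a log2 fold change of 0.04, and Osgin2, 4.53 kb away, of -0.34 (adjusted p = 0.0811, and 0.0025 with the block).

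Rad54b (ENSMUSG00000078773.11, chromosome 4 from 11558922 to 11615805, plus strand) encodes a DNA translocase of homologous recombination. The values were 49.2, 66.1, 60.8 and 69.6 CPM in Gata2 f/f libraries 1 to 4 and 49.3, 48.1, 42.1 and 57.4 CPM in Gata2 KO. Library 1 was level between the genotypes and the other 3 pairs were lower in Gata2 KO. For Rad54b the log2 fold change was -0.32 ± 0.15 (95% interval -0.65 to 0.01, adjusted p = 0.205), and -0.32 ± 0.10 with the block (adjusted p = 0.0225). The call with the block was lost without both libraries numbered 4 (adjusted p = 0.0956), and over all alternatives the adjusted p ran from 0.0225 to 0.551. Rad54b shares 2068 exon bases with Fsbp on the same strand, which held 3.18 and 3.73 CPM, so how reads of the shared exons were counted affects this level.

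Fancg (ENSMUSG00000028453.10, chromosome 4 from 43002343 to 43010506, minus strand) encodes a subunit of the Fanconi core complex, which marks Fancd2 with ubiquitin at crosslinks. It held 106, 100, 113 and 114 CPM in Gata2 f/f libraries 1 to 4 and 92.2, 96.6, 101 and 123 CPM in Gata2 KO. The Gata2 f/f values lay close together, and the highest value was that of Gata2 KO library 4. Its log2 fold change was -0.06 ± 0.12 (95% interval -0.33 to 0.20, adjusted p = 0.81, and 0.652 with the block). Its neighbour Vcp, a segregase that also acts at breaks, lies 1.84 kb away and was not called, at 1380 and 1340 CPM.

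Pot1a (ENSMUSG00000029676.15, chromosome 6 from 25743737 to 25809246, minus strand) encodes the shelterin subunit that covers single-stranded telomere ends and keeps them from being read as damage. It held 183, 189, 202 and 173 CPM in Gata2 f/f libraries 1 to 4 and 147, 152, 168 and 146 CPM in Gata2 KO. Every Gata2 KO library lay below every Gata2 f/f library, a ratio of means of 0.821. The log2 differences within same-numbered libraries were alike, at -0.31, -0.31, -0.26 and -0.24. For Pot1a the log2 fold change was -0.28 ± 0.10 (95% interval -0.50 to -0.06, adjusted p = 0.0973), and with the block -0.28 ± 0.07 (adjusted p = 0.00401). With the block it still passed without both libraries numbered 4 (adjusted p = 0.0257), and over all alternatives the adjusted p ran from 0.00401 to 0.551. The mouse has a paralog, Pot1b, and reads that both share may be split between them.

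**Figure D3:**
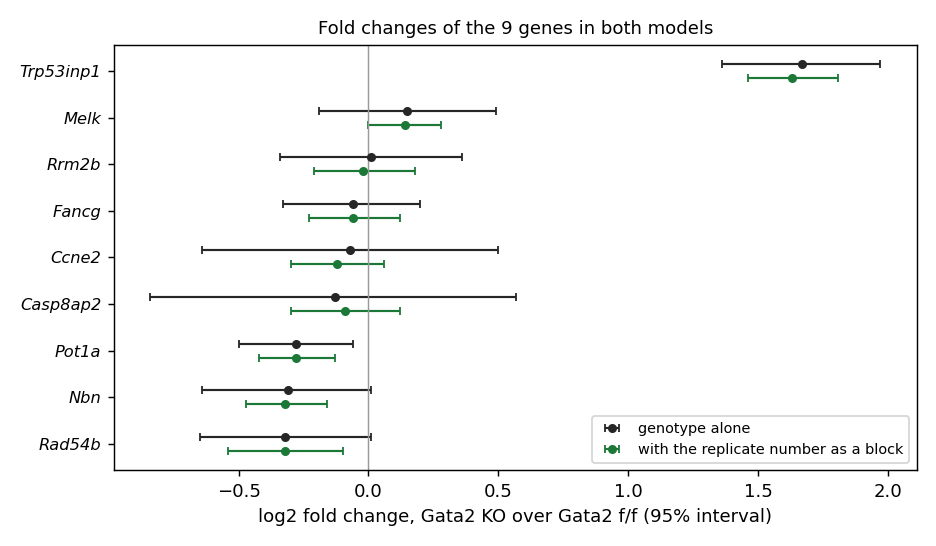
Log2 fold change of the 9 genes, Gata2 KO over Gata2 f/f, with its 95% interval in the model with genotype alone (black) and with the replicate number as a block (green). Trp53inp1 lies at 1.67, the other 8 lie between -0.32 and 0.15, and the intervals of Nbn, Rad54b and Pot1a lie wholly below 0 with the block.

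Another 18 genes of these pathways lie in the stretches, and 16 of them were tested. None was called with genotype alone, where 6 alternatives other than the block called between 1 and 3 of them, and 3 were called with the block. With genotype alone 12.5% of all rows tested and 12.3% in the stretches were called, and with the block 35.5% and 45.5%. In both models these genes were thus called no more often than the background. The median log2 fold change over the 16 was -0.01, equal to that over all rows tested. In DNA damage and repair 1 of 7 was called with the block, Mms22l, which acts in recombination at stalled forks. Mms22l was at 354, 394, 356 and 351 CPM in Gata2 f/f libraries 1 to 4 and 302, 306, 297 and 288 CPM in Gata2 KO, with no overlap (log2 fold change -0.29 ± 0.09, adjusted p = 0.066, and 0.00167 with the block). In cell cycle and replication 1 of 6 tested was called with the block, Orc3, a subunit of the origin recognition complex. Orc3 was at 818, 852, 716 and 567 CPM in Gata2 f/f and 548, 649, 571 and 478 CPM in Gata2 KO, lower in 4 of 4 pairs (log2 fold change -0.39 ± 0.14, adjusted p = 0.103, and 0.000177 with the block). The other 13 reported here had log2 fold changes between -0.10 for Topors and 0.19 for Zbtb5, neither called. The untested ones, Fbxo43 and Mos, act in meiosis and lay under 1 CPM.

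**Figure D4:**
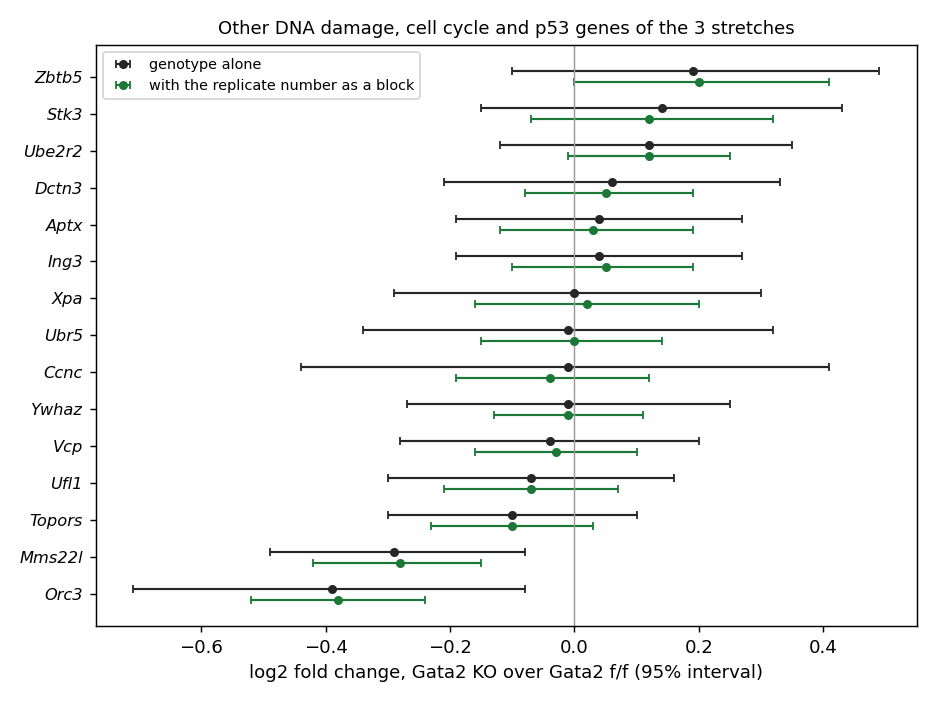
Log2 fold change with 95% interval of 15 of the 16 tested genes of DNA damage, cell cycle and p53 regulation that lie in the stretches, in the model with genotype alone (black) and with the block (green). Those plotted lie between -0.39 (Orc3) and 0.19 (Zbtb5), a narrower span than the 1.67 of Trp53inp1.

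Partners of these proteins, such as Mre11a, Rad50, Cdk2, Rrm2 and Cdkn1a, have rows outside the stretches. Of 35 such rows 19 lay under 1 CPM in the pooled libraries, including 7 of 10 named for p53 targets, and they were not read as genes.

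Set against length, the levels spread over a wide range. In Gata2 f/f, CPM per kilobase of merged exons fell from Ccne2 (156 ± 36.1) and Melk (111 ± 17.1) through Nbn (81.4 ± 12.2) to Casp8ap2 (29.7 ± 16.1), Fancg (28.5 ± 1.64) and Pot1a (21.6 ± 1.41). Rrm2b (11.6 ± 1.33), Rad54b (10.6 ± 1.54) and Trp53inp1 (10.3 ± 1.01) came last (SD, n = 4 each). The libraries of Ccne2 and Melk, of Melk and Nbn, of Casp8ap2 with both Fancg and Pot1a, and of Rrm2b, Rad54b and Trp53inp1 with each other overlapped, so their order is not fixed. In Gata2 KO Trp53inp1 stood in place 4 with 32.7 ± 5.13 CPM per kilobase, overlapping Casp8ap2 (27.2 ± 9.34) and Fancg (27.2 ± 3.6). Merged exons count every annotated isoform, which lowers the value of genes whose long isoforms are not used.

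For all 9 genes the library numbered 4 lay outside the range of libraries 1 to 3, and on the same side in both genotypes. Some margins were small, as for Fancg in Gata2 f/f (114 against 113 CPM) and Pot1a in Gata2 KO (146 against 147 CPM). Over all rows tested, deviations from genotype means correlated at 0.804 between the libraries numbered 4, so such shifts were not confined to these genes. The share of all rows that behaved so was not counted. Trp53inp1, Rrm2b, Ccne2, Melk and Pot1a were lower in library 4, and Casp8ap2, Nbn, Rad54b and Fancg were higher. The largest shifts were those of Ccne2, at 0.585 times the mean of libraries 1 to 3 in Gata2 f/f and 0.486 times in Gata2 KO, and of Casp8ap2, at 2.44 and 1.83 times. Depth moved with this split in Gata2 f/f, where library 4 held 5480086 counts and the others up to 2134344. In Gata2 KO library 4 held 6237748 and library 3 held 4129492. The part of depth in these shifts was not tested.

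**Figure D5:**
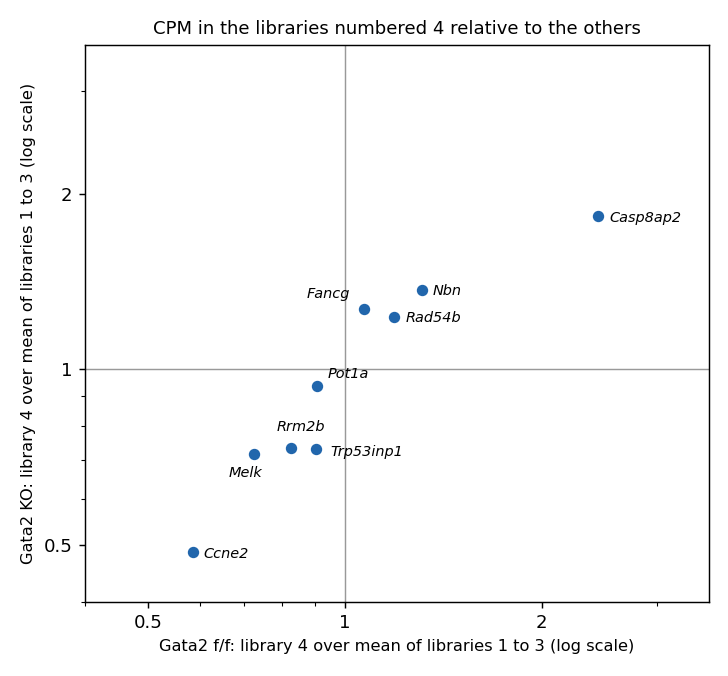
CPM in library 4 divided by the mean of libraries 1 to 3, for Gata2 f/f (horizontal) and Gata2 KO (vertical), both on log axes, 1 point a gene. All 9 genes lie in the lower left or upper right part, from Ccne2 (0.585 and 0.486) to Casp8ap2 (2.44 and 1.83).

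Some genes listed as cell type markers, mainly macrophage genes, were higher beside Trp53inp1. Of 14 listed for the stretches 6 were tested and 4 were called higher, against 9.49% of all rows tested there. The gene lists were chosen with earlier results of these data known, so this share is no test of an excess. Of the 5 macrophage genes listed for the stretches 3 were called higher in Gata2 KO (Irf5, Tfec and Atp6v0d2), Ripk2 was at 132 CPM in Gata2 f/f against 137 CPM in Gata2 KO, and Tspan33 lay under 1 CPM. The summed level of the 5 ranged from 1060 to 1450 CPM in Gata2 f/f and from 1900 to 2350 CPM in Gata2 KO. Most of that sum was Tfec, at 1110 ± 170 CPM in Gata2 f/f against 1650 ± 236 CPM in Gata2 KO (SD, n = 4 each). Irf5 went from 51.6 ± 10.7 to 259 ± 22.9 CPM and Atp6v0d2 from 7.87 ± 4.38 to 60 ± 60.3 CPM (SD, n = 4 each). The Gata2 KO mean of Atp6v0d2 rested largely on library 3, at 149 CPM, with the others between 17.3 and 36.8 CPM. All 3 B cell genes lay under 1 CPM. Of 6 epithelial and stromal genes, Cav2 was called higher (log2 fold change 1.13), Met was at 136 CPM in Gata2 f/f against 117 CPM in Gata2 KO (log2 fold change -0.22, adjusted p = 0.471, called lower with the block at 0.0308), Cav1 and Grhl2 lay under 1 CPM and Wnt2 was at 0. The part of the marked cell types in the change of Trp53inp1 was not tested.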

How the data were processed

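Poly(A) RNA was sequenced with paired reads of 65 bp from a kit that does not mark strand, per the labels' protocols. The authors deposited raw counts, 1 value per Ensembl identifier and library, and columns were matched to the 8 samples by description. The submitters' processing notes name mm10, kallisto, HTSeq and DESeq2. What each did and which annotation was counted is not given in the sources used here. Coordinates and exon lengths are those of GENCODE M21 (GRCm38). The 9 genes, the stretches and the gene lists were chosen with earlier results of these data known.

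The count test was that of edgeR 4.0.16 (R 4.3.3), applied after its default filter (minimum count 10) and TMM factors: the quasi-likelihood F-test on genotype, over all rows that passed. The 95% interval uses the SE, the log2 fold change over the root of F. CPM values of single libraries and their means by genotype are TMM-scaled. CPM over the pooled libraries, used to check row names, is summed counts over summed totals without TMM factors, so deeper libraries weigh more. The limit behind a count of 0, 3 counts, is worth between 0.481 and 1.86 CPM by library, and covers counting error only. Ratios of Trp53inp1 to the other genes used a pseudocount of 0.5 CPM.

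Named were the 9 genes, Gata2, the list genes called in either model or else the 4 with the smallest adjusted p (1 of them is not reported here), the nearest tested neighbours and the most correlated rows. Topors, Zbtb5, Fbxo43, Mos, the genes overlapping a member, and the marker and tissue-restricted genes were named after their values were seen.

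The genotypes share replicate numbers 1 to 4, taken from the sample titles. Deviations from genotype means correlated at 0.333, 0.213, 0.243 and 0.804 between same-numbered libraries, all over 0.1. On that ground same-numbered libraries were treated as pairs. Between different-numbered libraries the correlation ran from -0.474 to 0.182, and some of these values were also over 0.1. Only the value of the libraries numbered 4 lay far above these. The pairing was thus taken from the same counts that the block was used on. Alternatives were other scalings, filters, DESeq2 1.42.0, the block and libraries left out.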

Additional observations from a re-analysis of the deposited data

Results flagged for a closer look

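Ccne2 in Gata2 f/f library 4 was at 355 CPM, far from the other 3 libraries of its genotype at 600 to 614 CPM. Casp8ap2 in Gata2 KO library 4 was at 281 CPM, with the others at 149 to 157 CPM. Mms22l in Gata2 f/f library 2 was at 394 CPM, with the others at 351 to 356 CPM. Each gap took up most of its group's range. Of 24 groups of 4 libraries examined in this way 3 stood out, and chance alone picks out about 1 in 20 of independent groups. These groups are not independent, since the libraries numbered 4 shifted together over all rows tested, so that rate is only a rough guide.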

How the results depend on the processing

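Of 162 fold changes of the 9 genes over 18 alternatives each, 142 kept their direction and their side of the threshold, 7 passed only under the alternative (Nbn, Rad54b and Pot1a) and 13 turned direction in genes that were not called. Trp53inp1 kept its call and direction in all 18. With the replicate number as a block 4 of the 9 genes, 3 of the other pathway genes, 115 rows of the stretches and 2339 of all rows were called. Without both libraries numbered 4 these counts were 2, 3, 74 and 1437, and with the block and without those libraries 3, 3, 94 and 1727. Leaving out 1 library in turn gave 1 to 2 of the 9 genes, 0 to 2 other pathway genes, 24 to 49 rows of the stretches and 548 to 1103 of all rows. The second gene was Nbn, without Gata2 KO library 4 (2 called), and the highest counts came without Gata2 f/f library 4 (49 rows of the stretches, and 2 pathway genes). Of the other pathway genes, 2 were called with library totals (Mms22l and Orc3), 1 with upper quartile factors (Mms22l), 1 with TMM factors from the stretches (Orc3) and 1 in DESeq2 (Mms22l). The ratio of Trp53inp1 to the other genes passed for 7 of 8, also with each library left out, and for 0 without both libraries numbered 4 (smallest p 0.1) and 0 with swaps within replicate numbers (0.125), designs too small to pass.

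The log2 fold change of Rrm2b, 0.01, was -0.01 with library totals, DESeq2 size factors, TMM factors from the stretches and DESeq2, -0.03 with upper quartile factors and -0.02 with the block. It ranged from -0.13 to 0.11 with 1 library left out. That of Ccne2 ranged from -0.32 to 0.13 (0.13 without Gata2 KO library 4) and that of Casp8ap2 from -0.42 to 0.32. Casp8ap2 was at 0.06 without both libraries numbered 4, with or without the block. The cause of these shifts was not tested. Depth limits Rad54b most, whose lowest count was 91.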

Other observations

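The rows of the stretches most like each gene were sought by Pearson's r of log2 CPM deviations from the genotype means over the 8 libraries, which share number, depth and the distance of the libraries numbered 4 from the rest. Each r is therefore followed by that over the 6 libraries numbered 1 to 3. The rows were picked by the first r and the 6 libraries are among the 8, so the second r is no separate check. Ccne2 was closest to Ccnc, the gene of cyclin C (1.00 and 0.99), and to Tgfbr1 (0.99 and 0.97). Melk was closest to Dctn3, a dynactin subunit (0.98 and 0.94), and to Cav2 (0.98 and 0.89). Trp53inp1 was closest to B4galt1, a galactosyltransferase (0.97 and 0.94), and to Atp6v1f, a subunit of the vacuolar proton pump (0.95 and 0.82). For Rad54b the value with Reck was 0.91 and 0.89. Rrm2b was closest to the rows Gm11826 (0.93 and 0.91) and Ndufaf4 (0.92 and 0.87). Pot1a was closest to Pnrc1 (0.93 and 0.91) and Atp6v0d2 (0.92 and 0.96).

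With rows outside the 9 genes, the values of Casp8ap2 (both rows) and of Fancg with Nrf1 fell furthest without the libraries numbered 4. Casp8ap2 was closest to Zfp292 (0.97 and 0.64) and Chd7 (0.95 and 0.51), Fancg to Gba2 (0.89 and 0.87) and Nrf1 (0.85 and 0.14), and Nbn to Gm11914 (0.96 and 0.88) and Zcchc7 (0.95 and 0.71). Among the 9 genes, Ccne2 and Melk were closest to each other (0.96 and 0.81), as were Casp8ap2 and Rad54b (0.85 and 0.92). Nbn and Fancg were also closest to each other, but with values of 0.82 and 0.36. Both Rrm2b (0.91 and 0.89) and Trp53inp1 (0.86 and 0.6) were closest to Ccne2. Pot1a was closest to Melk, at 0.32 and -0.79. Over log2 CPM itself, which includes the difference between genotypes, Trp53inp1 was closest to B4galt1 (0.99 and 0.99), Glipr2 (0.97 and 0.97) and C9orf72 (0.96 and 0.95).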
